A study of Mus musculus with 20 samples.

Results

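The 29 genes described here make and control cholesterol and its companion lipids. Of these, 7 code for the mevalonate steps, 11 for the making of squalene and the sterol ring steps after it, 5 for SREBP and the proteins that hold or release it, 1 for a sterol carrier and 5 for fatty acid synthesis and desaturation. They were taken by gene symbol, and all 29 were found among the 27998 genes listed in the single-cell RNA-seq (scRNA-seq) files and among the 24062 genes of the RNA-seq files. The scRNA-seq data came from the dentate gyrus of Nestin-EGFP mice at P5 (postnatal day 5), 12w and 24w (12 and 24 weeks), with 1 library per age. In these mice EGFP is driven by Nestin sequences, and the sort on EGFP also collected pericytes and other vessel cells, so the NSCs were found by their markers. The RNA-seq data came from cultured NSCs derived from embryonic cortex and passaged many times, although the labels name the hippocampus, 3 days after lentiviral infection and with puromycin selection. The control cells carried a scrambled shRNA and the others an shRNA against Setd8, which codes for a methyltransferase of histone H4.

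Cholesterol is built from acetyl-CoA through mevalonate, isoprenoids, squalene and a series of ring-modifying steps in the endoplasmic reticulum. The genes of these steps are activated together by SREBP, a transcription factor that is kept in the endoplasmic reticulum with SCAP and INSIG when sterols are plentiful and is cut free in the Golgi when they are scarce. In the brain, cholesterol does not cross from the blood, and astrocytes and myelinating oligodendrocytes are known as its main producers.

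After the removal of doublets, 12752, 5271 and 2794 cells of the P5, 12w and 24w libraries were clustered, with all 29 genes kept out of the genes used for clustering, and clusters were named from marker genes as NSC-like, AS-like (astrocytes), NPC-like (cycling progenitors), IMN1-like and IMN2-like (immature neurons), OPC-like and MOL-like (oligodendrocyte precursors and myelinating oligodendrocytes), EPEN-like (ependymal cells), PC-like (pericytes), VSMC-like (vascular smooth muscle) and EC-like (endothelial cells). The NSC-like class had 1396, 369 and 89 cells at P5, 12w and 24w. It showed at least 10 of the 11 NSC markers at 20 CPM or more (UMIs per 1000000) at each age. Since these markers also named the clusters, this is no separate check of the class. Summed over the list, they were at 3373, 4689 and 4770 CPM in NSC-like cells, where the astrocyte markers were at 4025, 4962 and 5346 CPM. The NSC list was also high in VSMC-like cells, at 5625, 6859 and 7047 CPM. The AS-like class had 3555, 333 and 118 cells. PC-like cells made up 2.80% of the cells at P5 but 46.2% and 62.3% at 12w and 24w, and the summed level of the pericyte markers in NSC-like cells was 287, 1303 and 2442 CPM. From 22 markers of pericytes, vascular smooth muscle and endothelial cells, the share of NSC-like RNA attributed to free RNA was 8.54% at 12w and 11% at 24w. No such estimate could be made at P5. Beyond subtracting this estimate, the part of free RNA in the differences from P5 was not tested. The libraries also differed in sex, since Xist without Y-linked genes was detected at P5, 12w and 24w in 20.1%, 92.5% and 0.0358% of cells, and Y-linked genes without Xist in 32.0%, 0% and 29.5%. Age and sex therefore cannot be told apart between 12w and 24w. P5 and 12w shared 98 cell barcodes, P5 and 24w 63, and 12w and 24w 26.

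The 250 bases upstream of the annotated start are shown for 4 genes, because this is where SREBP and its partner factors are known to act. Hmgcs1 was chosen as the only gene with the classical sterol element, Lss and Hsd17b7 as 2 ring-step genes whose levels were lower both at 12w and after Setd8 KD, and Insig1 as a feedback gene. They lie at chr13:119690101-119690350 (plus strand), chr10:76531355-76531604 (plus strand), chr1:169969206-169969455 (minus strand) and chr5:28071162-28071411 (plus strand) of GRCm38.p6, taken from RefSeq. Capitals mark the sterol element TCACNCCAC, the CCAAT box bound by NF-Y, the GC box GGGCGG bound by Sp1 and the E-box CACGTG, on either strand.
Hmgcs1: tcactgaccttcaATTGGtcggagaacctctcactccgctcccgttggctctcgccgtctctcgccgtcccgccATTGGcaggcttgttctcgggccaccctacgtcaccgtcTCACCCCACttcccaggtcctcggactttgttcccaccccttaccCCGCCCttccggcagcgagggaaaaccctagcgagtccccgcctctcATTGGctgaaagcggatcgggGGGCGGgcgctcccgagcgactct
Lss: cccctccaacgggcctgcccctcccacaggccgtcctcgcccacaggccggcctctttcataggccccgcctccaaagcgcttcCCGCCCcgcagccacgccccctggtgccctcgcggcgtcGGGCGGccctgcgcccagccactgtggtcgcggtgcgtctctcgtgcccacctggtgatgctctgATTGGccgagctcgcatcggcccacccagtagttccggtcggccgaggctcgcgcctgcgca
Hsd17b7: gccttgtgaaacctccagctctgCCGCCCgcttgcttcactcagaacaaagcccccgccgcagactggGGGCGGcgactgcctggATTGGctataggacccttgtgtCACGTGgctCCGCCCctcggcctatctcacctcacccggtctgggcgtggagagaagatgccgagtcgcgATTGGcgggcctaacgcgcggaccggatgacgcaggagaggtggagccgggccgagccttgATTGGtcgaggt
Insig1: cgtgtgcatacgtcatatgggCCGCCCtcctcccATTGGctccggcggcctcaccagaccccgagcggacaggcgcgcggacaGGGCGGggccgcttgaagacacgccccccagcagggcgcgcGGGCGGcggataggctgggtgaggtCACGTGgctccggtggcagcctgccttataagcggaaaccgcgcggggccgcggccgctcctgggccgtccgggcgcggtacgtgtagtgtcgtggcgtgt
A promoter was in the table for 23 of the 29 genes, and none for Fdps, Fdft1, Sqle, Stard4, Scd1 and Scd2. The exact sterol element was found in 1 of the 23, Hmgcs1, where it starts 137 bases before the start. It was found in 1.22% of all 27025 genes with a promoter, in windows of the same length. Some genes have several annotated windows, and a member counted when any of these held the letters. The CCAAT box was found in 19 of 23 (82.6%, against 37.5% of all genes with a promoter) and the GC box in 20 of 23 (87.0%, against 35.4%). Among genes whose promoter held an open region at P5, the share was 38.7% for the CCAAT box and 57.4% for the GC box. For Pmvk and Insig2 the CCAAT box lay only in a window without an open region. The E-box was found in 5 of 23 (21.7%, against 6.86% of all genes with a promoter and 9.05% of those with an open region there at P5). Of the 15 synthesis steps with a promoter, 14 held a CCAAT box and 14 a GC box. The absence of a match says only that these letters are not in this window.

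The same windows were compared with the open regions of the single-cell ATAC-seq libraries of Nestin-EGFP+ cells, called by the authors in each library. An open region overlapped at least 1 promoter window of 22 of 23 genes at P5, 12w and 24w. The share was 56.0%, 57.9% and 55.6% of all genes with a promoter. Among the 22, Pmvk and Insig2 each also had a window without an open region. Acaca, the acetyl-CoA carboxylase that commits carbon to fatty acids, was the gene with no open region in any window. Its only annotated window also held none of the motifs, and whether it has an open start elsewhere was not examined. Fasn, the fatty acid synthase, held 111, 81.2 and 75.2 counts per 1000000 at its promoter region at P5, 12w and 24w, Insig1 held 93.2, 69.6 and 69.6, and Hmgcs1 held 68.7, 58.8 and 65.4. The median of the members lay at the 75.4th, 72.1st and 72.8th percentile of promoters with an open region. The counts are not scaled by the width of the open region, which was 5936, 5446 and 5173 bases for Fasn, 4642, 3324 and 3277 for Insig1 and 3154, 3075 and 3012 for Hmgcs1 in the 3 libraries. Values were read within each library and not between ages, since the cell make-up of the libraries differed as well.

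At P5, the genes of cholesterol synthesis were highest in the astroglial cells. The summed level of the 18 synthesis steps reached 2647 CPM in AS-like and, with an exact Poisson 95% interval of 2437 to 2517, 2477 CPM in NSC-like cells. MOL-like and OPC-like cells had 1797 and 1662 CPM, NPC-like cells 1383 CPM, and the IMN1-like and IMN2-like classes 1102 and 829 CPM. The sum was also low in EPEN-like (866 CPM), VSMC-like (799 CPM) and PC-like cells (736 CPM). Intervals here and throughout cover counting error in 1 library only. Because each age has 1 library, no test between ages was possible, and none was made between cell types.

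**Figure D1:**
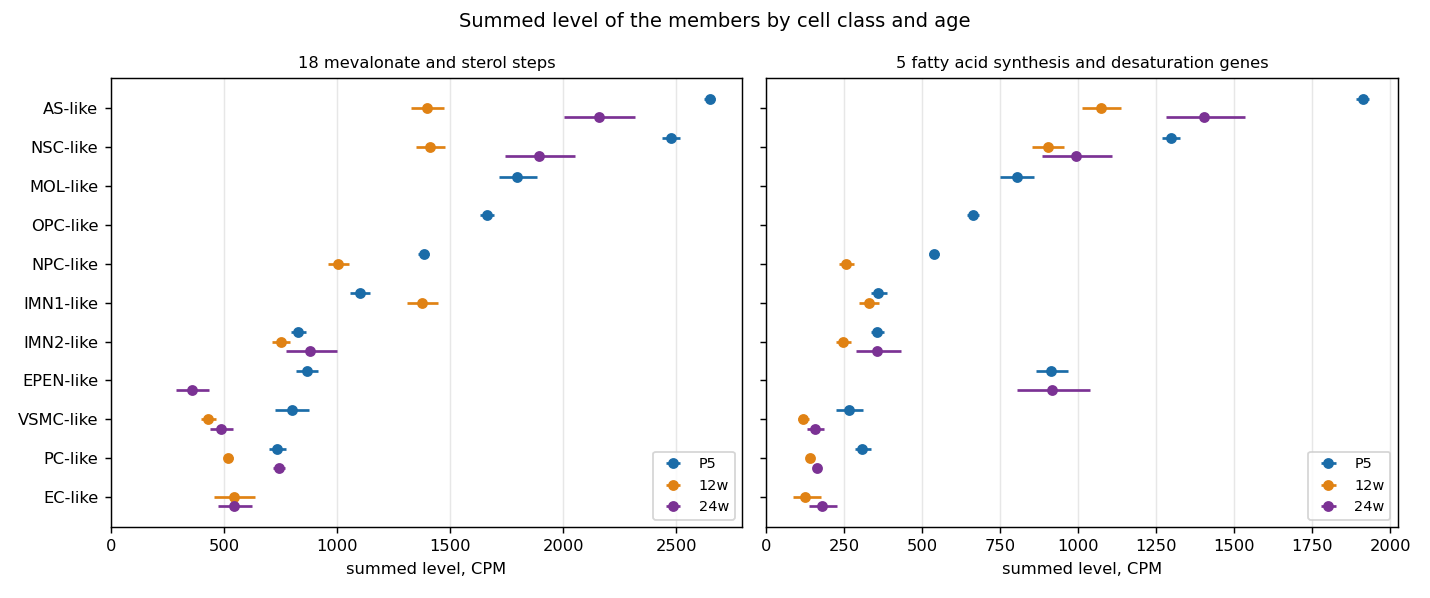
Summed level (CPM, horizontal axes) of the 18 synthesis steps (left) and of the 5 fatty acid genes (right) in each cell class with at least 50 cells at P5, 12w and 24w; bars are exact Poisson 95% intervals. AS-like and NSC-like cells stand highest at P5 (2647 and 2477 CPM) and IMN1-like cells reach the level of NSC-like cells at 12w (1376 and 1412 CPM).

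Of the 18 steps, 11 were highest in AS-like cells at P5 and 3 in NSC-like cells. The lead over the second class was within counting error for Mvk, Fdft1, Lss, Cyp51 and Nsdhl among the former. The same held for Idi1 and Fdps among the latter. No share over all genes was computed for this order. Hmgcs1, which makes HMG-CoA from acetyl-CoA units, stood at 471 CPM in AS-like cells, at 441 CPM in the NSC-like class and lowest, at 77.5 CPM, in IMN2-like cells. Msmo1, the methylsterol oxidase, was at 359 CPM in the AS-like and 272 CPM in the NSC-like class. Tm7sf2, a sterol reductase of the ring steps, was at 90.1 and 46.7 CPM. Acat2, the thiolase that starts the pathway, followed another order, with 198 CPM in MOL-like cells, 185 CPM in the NSC-like and 146 CPM in the AS-like class. The MOL-like and NSC-like values of Acat2 did not differ beyond counting error.

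The fatty acid genes set the astrocytes apart from the NSCs more clearly than the sterol genes did in their summed levels. Their sum was 1912 CPM in the AS-like class and 1299 CPM in the NSC-like class, of which Scd2, the main brain stearoyl-CoA desaturase, made up 1607 and 1084 CPM. Scd1, its relative of liver and skin, was at 113 and 49.3 CPM in the same order. Of the 29 genes, 13 were higher and 3 lower in AS-like than in NSC-like cells beyond counting error at P5, against 15.2% and 28.6% of all genes. Set against the NSC-like class, 27 of the 29 genes were lower in NPC-like cells, where 35.7% of all genes were. In IMN1-like cells 25 were lower, against 33.3%, in IMN2-like cells 26, against 36.8%, and in PC-like cells 26, against 32.3%. The median log2 ratio of the 29 genes to their NSC-like level was -0.87 for NPC-like, -1.14 for IMN1-like, -1.30 for IMN2-like and -1.74 for PC-like cells, beside medians from -0.19 to -0.08 over all genes.

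Ebp, the sterol isomerase, was the exception among the steps. At P5 it was nearly equal in PC-like (37.2 CPM), VSMC-like (36.9 CPM) and IMN1-like cells (36.7 CPM), its highest classes, and lowest in NSC-like cells (11.9 CPM). The PC-like and VSMC-like values did not differ beyond counting error. Across the 26 combinations of class and age with at least 50 cells, which share libraries and depth, the correlation of Ebp with the mean of the other steps was r = -0.74, while that of Hmgcs1 was 0.95 and that of Mvd and Cyp51 was 0.91. Among the genes outside the steps it was 0.79 for Insig1, 0.80 for Fasn and 0.71 for Scd2, but -0.54 for Insig2 and -0.03 for Acly. Of 7125 genes compared with the mean of the steps, the most alike were 0610007P14Rik, which RefSeq names Erg28 (r = 0.93), Syt11 and Slc35f1 (0.90 each), and Ttyh3 and Luzp2 (0.89 each). These correlations are descriptions and have no test.

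Between P5 and the adult ages, the mevalonate steps were lower in NSC-like cells at 12w in every case. A gene was counted as lower or higher when its pooled level differed at least 1.5-fold and the higher age held at least 20 unique transcript counts (UMIs). By this rule 17 of the 29 genes were lower at 12w than at P5 in NSC-like cells, against 19.9% of all genes that could be counted, and 2 were higher, Ebp and Srebf1, of 26 that could be, against 25.0%. Of the 18 steps, 14 were lower and 1 was higher, with a median log2 ratio of -0.97 beside 0.05 over all genes, and their sum was 0.570 times that at P5 (0.543 to 0.598, exact 95% interval).

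Among the mevalonate steps in NSC-like cells, Hmgcs1 stood at 441, 179 and 288 CPM at P5, 12w and 24w. Acat2 stood at 185, 92.6 and 80.0 CPM. Mvk, mevalonate kinase, stood at 96.3, 25.3 and 60.8 CPM, and its ratio of 12w to P5 was 0.262 (0.179 to 0.372). All 3 were lower at both adult ages, and Hmgcs1 and Mvk were higher at 24w than at 12w. Mvd, the decarboxylase, stood at 89.4, 34.4 and 51.2 CPM. Fdps, which joins isoprenoid units to farnesyl diphosphate, stood at 234, 122 and 173 CPM. Pmvk, the second kinase, stood at 207, 125 and 157 CPM. Idi1, the isomerase, stood at 155, 98.7 and 125 CPM and was the mevalonate step closest to the 1.5-fold limit at 12w, with a ratio of 0.639. With free RNA subtracted, or in the largest NSC-like cluster alone, it no longer passed this limit.

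Among the squalene and ring steps, genes of the same path parted. Fdft1, squalene synthase, stood at 149, 148 and 147 CPM in NSC-like cells at P5, 12w and 24w. Sqle, squalene epoxidase, stood at 159, 87.3 and 144 CPM. Cyp51, the sterol demethylase, stood at 121, 53.6 and 70.4 CPM. Fdft1 thus had nearly equal levels at the 3 ages, whereas Cyp51 was lower at both adult ages and Sqle at 12w. Nsdhl, a sterol dehydrogenase, stood at 85.9, 33.7 and 28.8 CPM. Dhcr7, the last reductase of 1 branch, stood at 91.2, 51.3 and 64.0 CPM. Msmo1 stood at 272, 216 and 336 CPM and so had its highest value at 24w. Lss, which closes the sterol ring, stood at 27.2, 13.0 and 12.8 CPM, where the 24w value rests on 4 UMIs and its ratio to P5 has an interval of 0.127 to 1.23. Tm7sf2 stood at 46.7, 20.7 and 32.0 CPM. Hsd17b7, the keto reductase of the ring steps, stood at 19.7, 9.18 and 19.2 CPM. The 24w values rest on 9 UMIs for Nsdhl and 6 for Hsd17b7, whose ratio to P5 has an interval of 0.351 to 2.19. Sc5d, a desaturase, stood at 85.9, 69.7 and 73.6 CPM, within the counting error at both adult ages. Ebp stood at 11.9, 33.7 and 28.8 CPM, above P5 at both adult ages, with 44 UMIs at 12w and 9 at 24w.

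**Figure D2:**
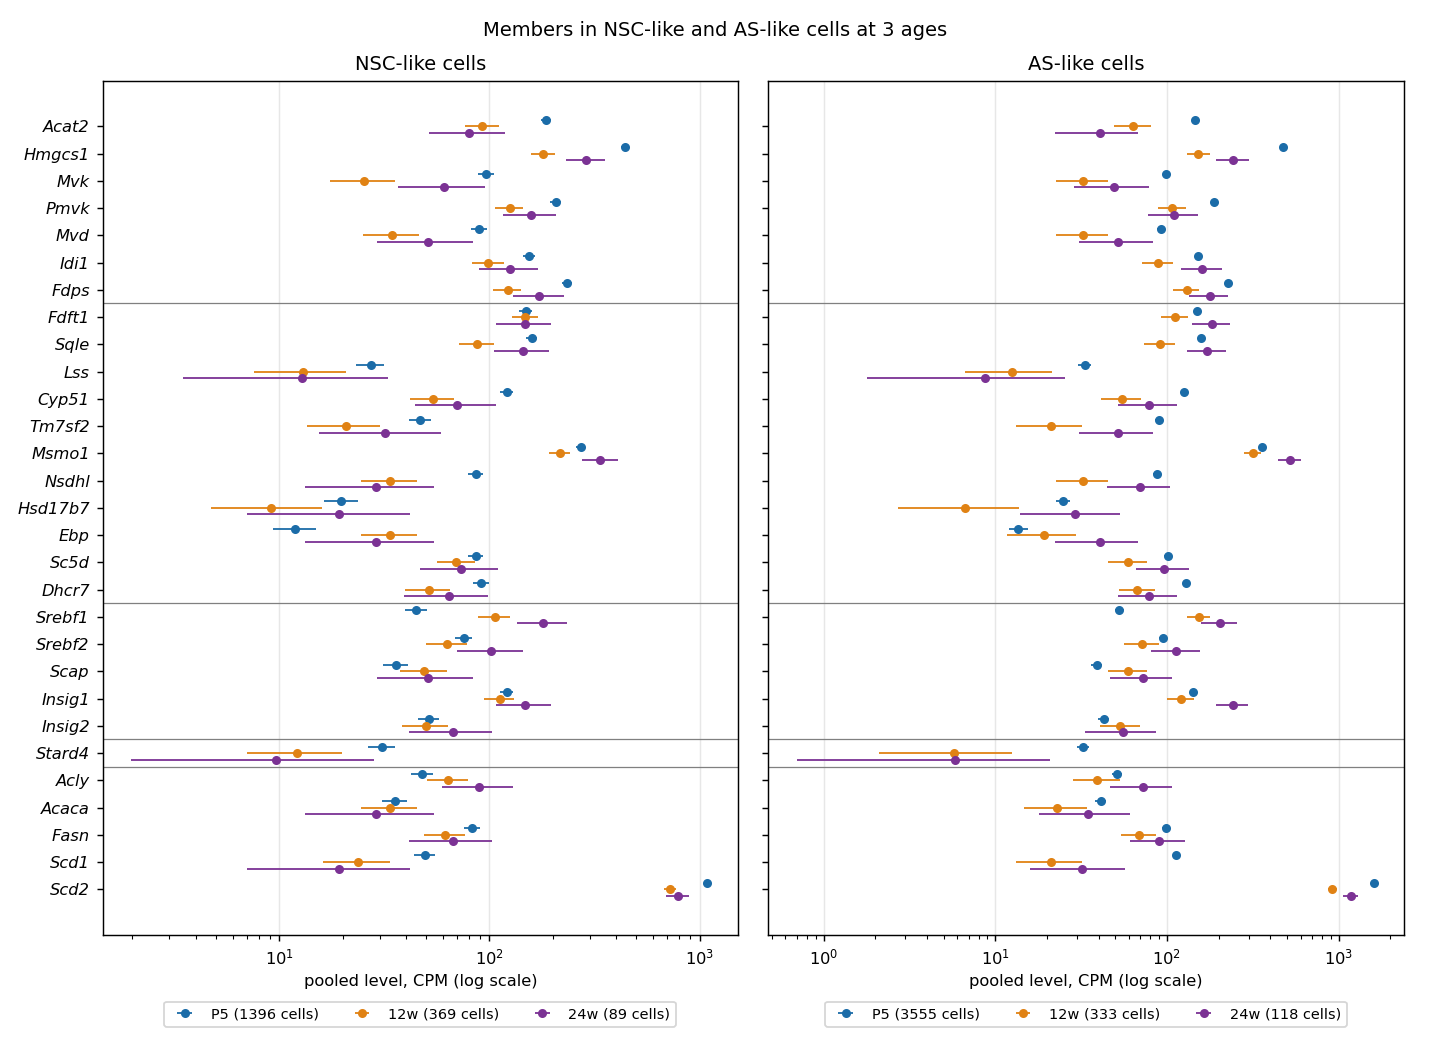
Pooled level of each of the 29 genes (CPM, log scale) in NSC-like (left) and AS-like cells (right) at P5, 12w and 24w, grouped by role with lines between roles; bars are exact Poisson 95% intervals. Mvk in NSC-like cells runs from 96.3 CPM at P5 to 25.3 CPM at 12w, and Srebf1 from 44.9 to 106 CPM.

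At 24w, the same cells held 9 of the 29 genes lower than at P5, not far above the 25.1% of all genes. Of 18 that could be, 2 were higher, Srebf1 and Acly, against 29.5%. The summed level of the 18 steps was 1892 CPM (1742 to 2051), between those of P5 and of 12w (1412 CPM, 1348 to 1478). Their sum was 0.764 times that at P5 (0.702 to 0.829) and their median log2 ratio was -0.45 beside 0.13 over all genes. The 9 were Acat2, Hmgcs1, Mvk, Mvd, Lss, Cyp51, Nsdhl, Stard4 and Scd1, and among them the interval of Lss included the level of P5. Free RNA held 894 CPM of the steps at 12w and 958 CPM at 24w, below the NSC-like level at both ages. With 89 cells and 312398 UMIs at 24w, 3 UMIs correspond to 9.60 CPM, so low genes were poorly resolved there.

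In AS-like cells the summed steps had the same order of ages. The make-up of this class differed between them, with 1 cluster at 23.7%, 5.41% and 5.93% of its cells at P5, 12w and 24w, another at 5.26%, 25.8% and 16.1%, and the largest at 55.2%, 54.7% and 65.3%. The largest NSC-like cluster held 54.0%, 70.7% and 79.8% of its class. Summed over their lists, NSC markers in the AS-like class were at 1390, 3661 and 4210 CPM and pericyte markers at 167, 1377 and 2476 CPM at the 3 ages, and their part in the differences was not tested. By the same rule, 19 of 29 genes were lower at 12w, against 25.8% of all genes, and 2 were higher, Srebf1 and Scap, of 26 that could be, against 29.4%. At 24w 11 of 29 were lower, not far above the 29.6% of all genes. Of 18 that could be, 3 were higher, Srebf1, Scap and Insig1, against 33.5%. The summed steps were 2647, 1397 and 2157 CPM at P5, 12w and 24w, or 0.528 (0.501 to 0.556) and 0.815 (0.757 to 0.876) times P5. The median log2 ratio of the steps was -1.06 beside 0.07 over all genes at 12w, and -0.51 beside 0.16 at 24w.

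Tm7sf2 had the lowest ratio of the steps at 12w in AS-like cells, with 90.1, 21.1 and 52.2 CPM at P5, 12w and 24w and a ratio of 0.234 (0.146 to 0.355). Hmgcs1 stood at 471, 152 and 244 CPM. Mvk stood at 99.3, 32.6 and 49.3 CPM. Each of these was lower at both adult ages, with 24w above 12w. Msmo1 stood at 359, 315 and 519 CPM and Fdft1 at 150, 111 and 183 CPM. Both had their highest value at 24w, although for Fdft1 the interval of the 24w ratio included the level of P5. Sqle stood at 157, 91.0 and 171 CPM, Idi1 at 152, 89.1 and 159 CPM and Sc5d at 101, 59.4 and 95.7 CPM. These 3 were lower at 12w, and at 24w their intervals included the level of P5. The remaining steps in AS-like cells were lower at 12w by 1.74- to 3.71-fold, except for Ebp (13.6, 19.2 and 40.6 CPM).

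The genes that code for SREBP and its control differed among themselves, and by the 1.5-fold rule none of the 5 was lower in either class. Srebf1, which codes for the form of SREBP tied mainly to fatty acid genes, stood at 44.9, 106 and 179 CPM in NSC-like cells and at 52.9, 153 and 203 CPM in AS-like cells. Its ratio of 24w to P5 was 4.00 (2.94 to 5.34) in NSC-like cells. At 12w, 14 of the 18 steps were lower in the NSC-like and 15 in the AS-like class, against 19.9% and 25.8% of all genes. At 24w 7 and 9 were, against 25.1% and 29.6%. Srebf1 was higher at both ages in both classes. Srebf2, which codes for the form tied mainly to cholesterol genes, stood at 75.3, 62.8 and 102 CPM in NSC-like cells and differed less than 1.5-fold from P5 in both classes at both ages, although its ratio of 0.760 (0.595 to 0.958) in AS-like cells at 12w lay below 1 beyond counting error. Scap, the escort protein of SREBP, stood at 35.8, 49.0 and 51.2 CPM in NSC-like and at 38.9, 59.4 and 72.5 CPM in AS-like cells. Scap in AS-like cells at 12w, with a ratio of 1.53 (1.16 to 1.98), did not pass the 1.5-fold limit under 3 of the alternatives that kept this limit, among them the use of P5 cells of like sex alone. Insig1, an SREBP target that holds SCAP back, stood at 121, 112 and 147 CPM in NSC-like and at 142, 120 and 241 CPM in AS-like cells. Insig2 stood at 51.3, 49.8 and 67.2 CPM in NSC-like cells and its intervals included the level of P5 in both classes.

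Stard4, a carrier that moves cholesterol between membranes, stood at 30.8, 12.2 and 9.60 CPM in NSC-like cells and at 32.5, 5.75 and 5.80 CPM in AS-like cells. The AS-like values at 12w and 24w rest on 6 and 2 UMIs, and the ratio of 24w to P5 was 0.178 (0.0215 to 0.647). Scd1 stood at 49.3, 23.7 and 19.2 CPM in NSC-like and at 113, 21.1 and 31.9 CPM in AS-like cells. In AS-like cells at 12w these were the 2 lowest ratios of the 29 genes (0.177 for Stard4 and 0.186 for Scd1), whereas in NSC-like cells at 12w 9 genes had a lower ratio than Scd1 (0.481). Scd2 stood at 1084, 720 and 787 CPM in NSC-like and at 1607, 920 and 1174 CPM in AS-like cells. Its ratio of 0.665 in NSC-like cells at 12w lay at the limit of the rule, and under 4 of the alternatives that kept the 1.5-fold limit it was no longer counted as lower. Acly, which makes cytosolic acetyl-CoA from citrate, stood at 47.8, 63.5 and 89.6 CPM in NSC-like cells, higher at 24w. Fasn (82.4, 61.2 and 67.2 CPM) and Acaca (35.4, 33.7 and 28.8 CPM) differed less than 1.5-fold from P5 in NSC-like cells, and Acaca was lower at 12w in AS-like cells (41.2, 23.0 and 34.8 CPM).

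By the 1.5-fold rule most of the steps were not lower at 12w in the immature neurons. In IMN1-like cells 3 of 28 genes that could be were lower, against 10.6% of all genes, and 6 were higher of 23 that could be, against 25.4%, and the summed steps were 1.25 times P5 (1.17 to 1.33). The median log2 ratio of the steps was 0.25, close to the 0.16 over all genes. Hmgcs1 stood at 107 CPM at P5 and 186 CPM at 12w in these cells, Cyp51 at 56.4 and 96.2 CPM, and Insig1 at 26.2 and 59.6 CPM. The summed pericyte markers were at 101 and 1135 CPM in IMN1-like cells at P5 and 12w. For IMN2-like cells they were at 119, 1159 and 2220 CPM at P5, 12w and 24w. Their part in the differences was not tested. In IMN2-like cells 8 of 27 genes were lower at 12w, against 11.2%, and 1 of 23 was higher, against 27.5%. At 24w 4 of 27 were lower, against 18.9%, and 3 of the 7 that could be were higher, against 24.8%. At 12w the summed steps were 0.908 times their P5 level (0.849 to 0.970), and at 24w 1.06 times (0.927 to 1.21). The median log2 ratio of the steps in IMN2-like cells at 12w was -0.18 beside 0.18 over all genes, and 5 of 17 steps were lower.

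**Figure D3:**
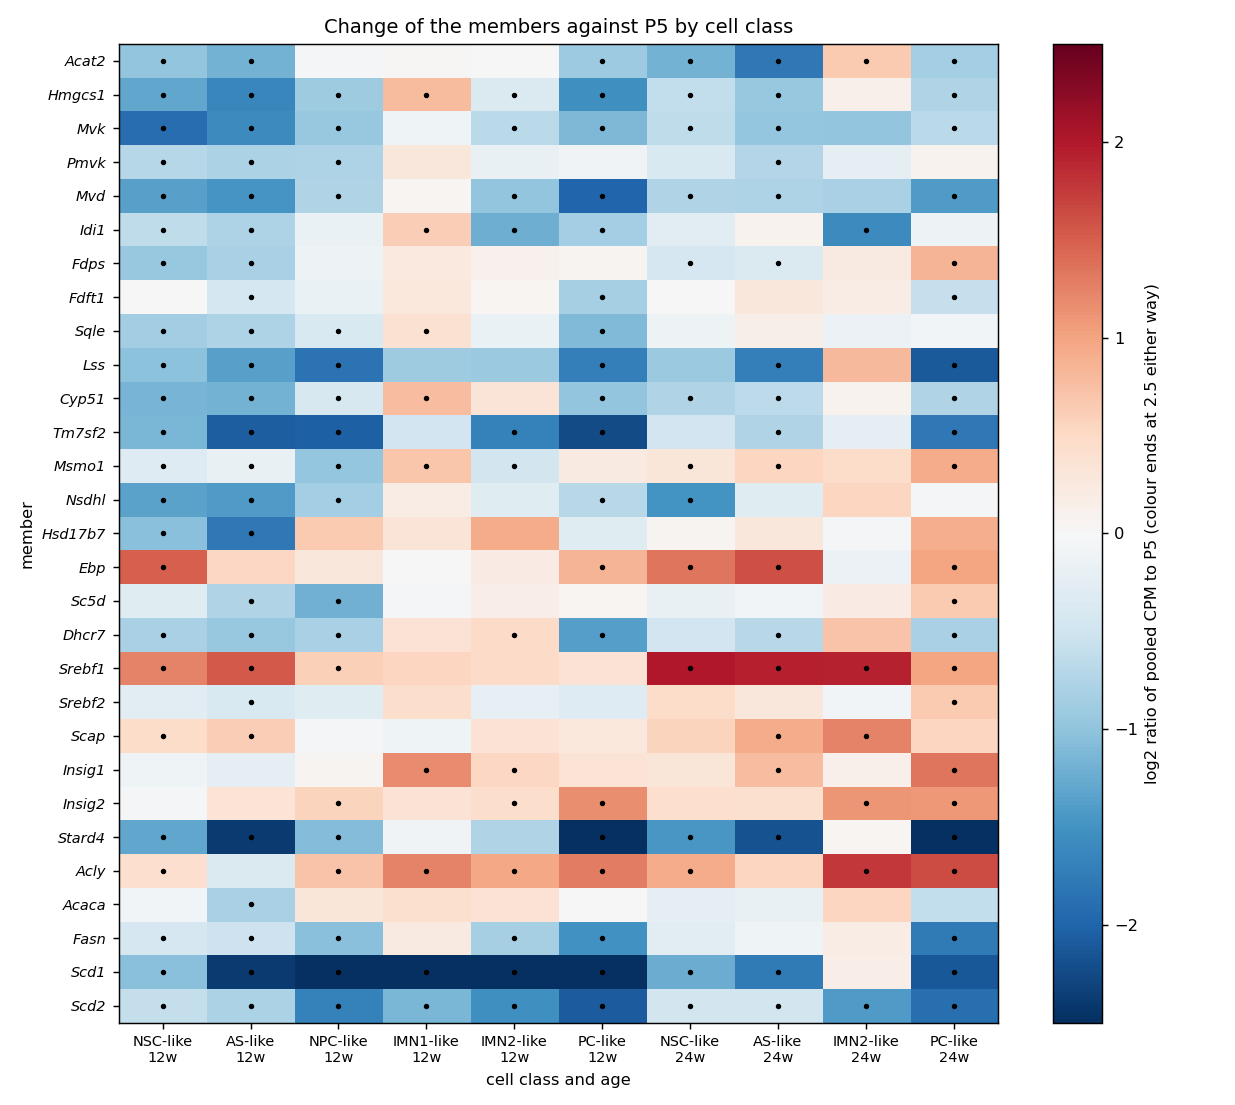
Colour shows the log2 ratio of each of the 29 genes (rows) at 12w or 24w to its level at P5 in 6 cell classes (columns), and a dot marks a ratio whose exact 95% interval leaves out 1. Most of the 18 steps lie below 0 in NSC-like and AS-like cells at 12w (medians -0.97 and -1.06), and in IMN1-like cells their median is 0.25.

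In NPC-like cells 14 of 29 genes were lower at 12w, against 14.9% of all genes, and 3 of 25 were higher, against 22.2%, and the summed steps were 0.727 times P5 (0.691 to 0.764). In PC-like cells 15 of 26 were lower at 12w, against 20.9%, and 3 of 24 were higher, against 32.7%, whereas at 24w 11 of 26 were lower, against 20.4%, and 10 of 25 were higher, against 35.5%. The summed steps of PC-like cells were 0.706 times P5 at 12w and 1.01 times at 24w. Scd2 was lower at 12w in NPC-like, IMN1-like, IMN2-like and PC-like cells. It stood at 386 and 120 CPM at P5 and 12w in the first of these, at 223 and 101 CPM in IMN1-like cells, at 216 and 74.4 CPM in IMN2-like cells and at 234 and 55.1 CPM in PC-like cells. Acly went the other way in the same cells. It stood at 46.9 and 76.3 CPM in NPC-like, at 60.7 and 144 CPM in IMN1-like, at 48.6 and 95.4 CPM in IMN2-like and at 26.4 and 64.7 CPM in PC-like cells. Scd1 in IMN1-like cells had 21 UMIs at P5 (9.18 CPM), just above the limit of 20, and 0 at 12w, and the interval of its ratio reached up to 0.374. The summed level of the astrocyte markers was also lower at 12w in these classes, with a change from 1275 to 527 CPM in the NPC-like, from 529 to 261 CPM in the IMN1-like, from 655 to 314 CPM in the IMN2-like and from 940 to 319 CPM in the PC-like class. Scd2 was at 1607 CPM in the AS-like class at P5, and the part of astrocyte RNA in these differences was not tested.

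The steps were also lower in the adult in the other classes that could be compared. In VSMC-like cells 9 of the 12 genes with enough UMIs at P5 were lower at 12w, against 24.8% of all genes, and 4 of the 17 with enough UMIs at 12w were higher, against 37.1%. At 24w 8 of 12 were lower, against 25.7%, and 3 of 14 were higher, against 40.7%, and the summed steps were 0.539 and 0.610 times P5. The summed astrocyte markers in VSMC-like cells were 707, 296 and 186 CPM at P5, 12w and 24w, and their part in this difference was not tested. In EPEN-like cells at 24w 17 of 27 genes were lower, against 26.7%, and 1 of the 3 that could be was higher, against 23.9%. Of the 17, 9 were lower beyond counting error, and all 17 rest on 1 to 13 UMIs at 24w. Over the class the summed steps were 0.412 times P5 (0.331 to 0.508), where the astrocyte markers were at 2373 CPM at P5 and 2617 CPM at 24w. Pericyte markers in EPEN-like cells were at 181 and 2545 CPM and vascular smooth muscle markers at 143 and 980 CPM at these ages. Their part in this difference was not tested.

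Other lipid genes of the listed pathways were read in the same way in NSC-like cells at 12w. Of the genes listed as other SREBP-linked lipid genes, 6 of the 14 that could be were lower, against 19.9% of all genes. Of these genes 1 of 13 was higher, against 25.0%. The list includes Fabp5 and Fabp7, and a link of its genes to SREBP was not tested. Fabp7, a fatty acid carrier of radial glia, stood at 11649, 3297 and 2020 CPM at P5, 12w and 24w, and Elovl6, which lengthens fatty acids, at 86.9, 29.9 and 35.2 CPM. Acsl3, which activates fatty acids, was higher in the adult, at 82.1, 433 and 387 CPM. Of the isoprenoid branch, 1 of 12 was lower and 2 of 8 were higher. Of the SREBP processing and turnover genes, 0 of 11 were lower and 1 of 10 was higher. Of the sterol efflux and turnover genes, 1 of 9 was lower and 3 of 6 were higher. Abca1, the cholesterol exporter, stood at 84.4, 48.2 and 28.8 CPM, and Cyp46a1, the neuronal cholesterol hydroxylase, at 25.5, 69.7 and 86.4 CPM.

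Setd8 itself was read before the KD comparison. Of the 6 RNA-seq samples, the files of 2 control samples hold gene symbols and gene lengths, and 4 hold TPM, transcript abundances scaled for gene length and library size. Setd8 was at 154 TPM in the library labelled Ctrl_3, 143 TPM in those labelled Setd8KD_1 and Setd8KD_2, and 36.4 TPM in that labelled Setd8KD_3. Matched by value to the gene table of the article, the first 3 of these libraries carried its control columns and the last its KD column, at 169 of 169 genes each, and this grouping was used here against the titles. The comparison therefore sets 1 KD library against 3 controls. The log2 fold change of Setd8 was -1.98 (limma, adjusted p = 0.000113). Nothing says that the libraries came from separate cultures, so p-values measure only the spread among these libraries, which may be technical, and the KD library is assumed to vary like the controls. In bulk RNA, fewer cells of a kind and less RNA per cell cannot be told apart.

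Most of the cholesterol synthesis genes fell after Setd8 KD. By limma on log2(TPM + 1) with Benjamini-Hochberg adjusted p under 0.05 over 12703 genes, 22 of the 29 genes fell, against 21.7% of all genes tested, and 1 rose, Scap, against 20%. With no filter on low values 13 of the 29 fell, and with the libraries grouped by their titles 0 fell. Of the 18 steps, 17 fell, 7 of 7 in the mevalonate part and 10 of 11 in the squalene and ring part. The KD value lay below all 3 controls for 18 of 18 steps, against 40.8% of all genes. The median log2 fold change of the steps was -0.59 beside 0.00 over all genes. A change of at least 1.5-fold downwards was met by 11 of the 29 genes, against 8.19% of all genes, and upwards by 0, against 6.61%. The KD value lay above all 3 controls for 3 of the 29 genes, against 41.3% of all genes.

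Lss was at 40.9, 46.6 and 46.9 TPM in the controls and 19.4 TPM in the KD library, a log2 fold change of -1.17 (SE 0.10, limma adjusted p = 0.000395). Fdps was at 193, 182 and 193 TPM against 93.6 TPM (-1.01, SE 0.06, adjusted p = 0.000164). Hsd17b7 was at 31.2, 28.8 and 28.0 TPM against 15.6 TPM (-0.86, adjusted p = 0.000755). In all 3 the KD value was far below the lowest control. Acat2 was at 148, 137 and 142 TPM against 78.5 TPM (-0.85, adjusted p = 0.000289). Hmgcs1 was at 551, 518 and 515 TPM against 318 TPM (-0.73, adjusted p = 0.000325). Fdft1 was at 75.6, 71.1 and 74.2 TPM against 44.4 TPM (-0.72, adjusted p = 0.000529). The controls of these genes lay close together and did not overlap with the KD value. Nsdhl was at 163, 152 and 165 TPM against 100 TPM. Cyp51 was at 167, 160 and 163 TPM against 107 TPM. Msmo1 was at 322, 296 and 302 TPM against 206 TPM. Their log2 fold changes were -0.67, -0.60 and -0.57. Idi1 was low in these cells, at 4.31, 3.76 and 3.99 TPM against 2.29 TPM (adjusted p = 0.0187), and lost its call with DESeq2 on recovered reads.

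The other steps fell by less. The log2 fold change was -0.49 for Ebp, -0.46 for Dhcr7, -0.45 for Tm7sf2, -0.40 for Pmvk, -0.30 for Mvd, -0.29 for Mvk and -0.27 for Sc5d. The call of Mvk was lost without the library labelled Setd8KD_2 and that of Sc5d without the library labelled Setd8KD_1. Sqle was the 1 step that did not pass, at 229, 221 and 227 TPM against 210 TPM (-0.10, limma adjusted p = 0.159).

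**Figure D4:**
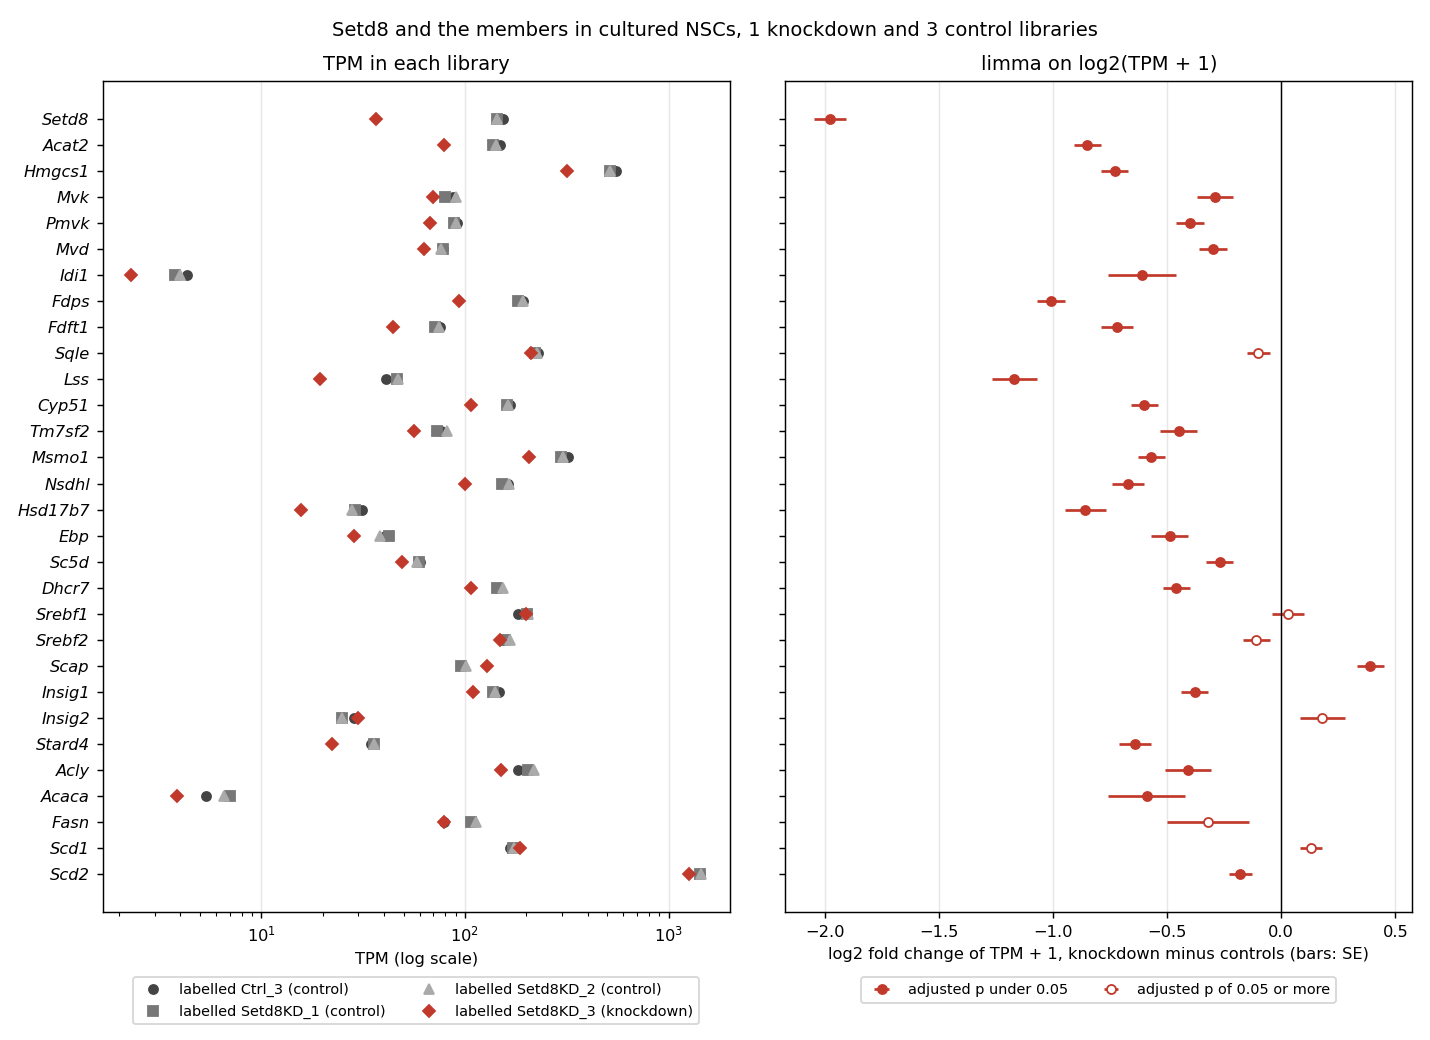
TPM (left, log scale) of Setd8 and the 29 genes in the 3 control libraries and the 1 Setd8 KD library, and the limma log2 fold change of TPM + 1 with its SE (right; filled points have an adjusted p under 0.05). The KD value lies below all controls for 18 of 18 steps, for example Fdps at 93.6 TPM against 182 to 193 TPM.

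The genes for SREBP and its control were called about as often as all genes, with 1 of 5 that fell and 1 that rose, against 21.7% and 20%. Srebf1 was at 182, 201 and 203 TPM in the controls and 199 TPM in the KD library (log2 fold change 0.03, limma adjusted p = 0.786). Srebf2 was at 156, 157 and 167 TPM against 149 TPM (-0.11, adjusted p = 0.218). Neither passed the test. Scap rose, from 96.3, 95.7 and 101 TPM to 128 TPM (0.39, adjusted p = 0.00309), and Insig1 fell, from 147, 138 and 140 TPM to 109 TPM (-0.38, adjusted p = 0.00362). Insig2 was at 28.6, 25.0 and 24.9 TPM against 29.7 TPM (0.18, adjusted p = 0.195). Stard4 fell, from 34.4, 35.6 and 35.8 TPM to 22.3 TPM (-0.64, adjusted p = 0.00107).

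Of the 5 fatty acid genes 3 fell, against 21.7% of all genes, and the calls of 2 of these rested on single control libraries. Acly was at 183, 204 and 219 TPM against 151 TPM (-0.41, limma adjusted p = 0.0159), Acaca at 5.34, 7.03 and 6.53 TPM against 3.84 TPM (-0.59, adjusted p = 0.0295), and Scd2 at 1421, 1424 and 1448 TPM against 1261 TPM (-0.18, adjusted p = 0.0191). The call of Acaca was lost without the library labelled Setd8KD_1 or that labelled Setd8KD_2, and that of Scd2 without the former. Fasn was at 79.1, 107 and 113 TPM against 78.7 TPM, so that the library labelled Ctrl_3 lay at the KD value (-0.32, adjusted p = 0.202). Without that library Fasn passed the test at -0.48, and so did Insig2 at 0.25. Scd1 was at 167, 172 and 174 TPM against 187 TPM (adjusted p = 0.102).

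Among the companion lists, 8 of 14 other SREBP-linked genes fell and 1 rose, beside the 21.7% and 20% of all genes. Elovl6 was at 56.4, 51.8 and 48.0 TPM against 18.7 TPM (-1.42, limma adjusted p = 0.000217), and Acss2, which makes acetyl-CoA from acetate, at 31.6, 36.6 and 35.8 TPM against 12.9 TPM (-1.36, adjusted p = 0.000281). Of the sterol efflux and turnover genes, 2 of 9 fell and 4 rose. Abca1 rose (1.02, adjusted p = 0.00428), while Soat1, which esterifies cholesterol for storage, fell (-1.32, adjusted p = 0.000199). Of 12 SREBP processing and turnover genes 2 fell and 5 rose, Syvn1 (0.63), Fbxw7 (0.56), Rnf139 (0.38), Mbtps1 (0.25) and Pgrmc1 (0.19). Of the 12 isoprenoid branch genes 3 fell and 1 rose, near the share of all genes that fell.

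Side by side, 17 genes were lower with age in NSC-like cells at 12w and 22 fell after Setd8 KD, and 15 were in both lists, which is 88.2% of the former and 68.2% of the latter, while 22 of all 29 genes fell after KD, so a large overlap follows from the list itself. Sqle and Scd1 were lower with age and did not fall after KD. Fdft1, Msmo1, Ebp, Sc5d, Insig1, Acly and Acaca fell after KD and were not lower by the 1.5-fold rule at 12w in NSC-like cells. Of these, Msmo1 was below P5 there beyond counting error. In AS-like cells at 12w 19 were lower with age and 17 of these fell after KD. At 24w 8 of 9 in NSC-like and 10 of 11 in AS-like cells did so. The overlap of the lists was not tested, and the cells of the KD comparison are a culture from embryonic cortex. Ebp was higher at 12w in NSC-like cells, at 2.83 times P5, and fell after KD (-0.49). Srebf1 had ratios of 2.35 and 4.00 to P5 in NSC-like cells at 12w and 24w and a KD log2 fold change of 0.03.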

How the data were processed

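The scRNA-seq counts are raw UMIs per gene and barcode, which the authors made with Cell Ranger 2.2.0 on mm10. Barcodes passed with 1000 UMIs and 500 genes or more and no more than 10% of mitochondrial UMIs (13684, 5351 and 2797 at P5, 12w and 24w), and doublets called with scrublet in scanpy 1.11.5 were removed (932, 80 and 3 cells). The P5 library lists only selected barcodes, so free RNA could be estimated only at 12w and 24w, from barcodes of 10 to 100 UMIs. The median was 4261, 2271 and 2178 UMIs per cell. Seurat 5.3.0 was used with 2000 variable genes, 30 dimensions and a resolution of 0.8, and astroglial, progenitor and immature neuron clusters were clustered again. A cluster took a class name at a marker score of at least 0.5 with at least 3 markers raised, and 2272, 462 and 223 cells were left without a name. UMIs were pooled by class and given as CPM with exact Poisson intervals, and ratios have exact conditional binomial intervals, both at 95%. Log2 ratios have 0.5 UMIs added. On simulated data of NSC-like cells at 12w the rule of size recovered 90.0% of 2-fold lower genes and called 6.07% of unchanged genes lower, and at 24w 81.0% and 17.3%. In AS-like cells it recovered 88.0% (12w) and 77.0% (24w), and called 10.4% and 21.1% of unchanged genes lower. These simulated data held counting error only, without differences between libraries in cell make-up, sex or free RNA.

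The scATAC-seq counts per peak were deposited with peaks called in each library, and cells with 3000 to 100000 counts were used (8788, 12638 and 6041). An overlap of 1 base counted, and 50% of the window was the alternative. Promoters were RefSeq windows from 250 bases before to 50 after the start, and motifs were searched in the bases before it.

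The RNA-seq TPM were made by the authors after Trimmomatic and STAR on mm10, with 0.01 read added to each gene. RSEM is among the tools the article lists, with no role stated there for this table, and the handling of reads shared between paralogues (Scd1 and Scd2, Idi1 and Idi2, Acat2 and Acat3) is not given in the sources used here. Whole reads were recovered from TPM for 100% of values under 1000 reads (tolerance 0.05 read), from 20040058 to 21493328 reads per library. Genes with a mean TPM of at least 1 were tested with limma 3.58.1 on log2(TPM + 1) with a trend, and as alternatives with edgeR 4.0.16 and DESeq2 1.42.0 on recovered reads. In simulated libraries limma found 60.0% of 1.5-fold and 93.0% of 2-fold changes, with 29 false calls among 12661 genes. Their spread was taken from the control libraries and may be technical. A fold change on the log2(TPM + 1) scale understates the change of low genes. The article's table title gives another day of collection than the labels, whose 3 days are used here. The bulk ATAC-seq and H4K20me1 samples were not analysed here.

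The 29 genes and the companion lists were chosen with earlier results of these data known. Every one of the 29 was accounted for, and companion genes were named only where they passed. Comparisons between ages have 1 library each and no test.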

Additional observations from a re-analysis of the deposited data

Results flagged for a closer look

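Several genes had ratios of adult to P5 level in opposite directions in NSC-like cells and in the IMN1-like or the IMN2-like immature neurons. None of these differences was tested, since each age has 1 library. Hmgcs1 at 12w was 0.406 times its P5 level in NSC-like cells and 1.74 times in IMN1-like cells. Idi1 was at 0.639 and 1.54 times, and Cyp51 at 0.443 and 1.71 times. The IMN2-like cells did not share this for all of these genes. At 12w Idi1 and Hmgcs1 were below P5 there beyond counting error, as in NSC-like cells, and Idi1 was called lower. Cyp51 was above P5 in IMN2-like cells, within counting error. The NSC-like call of Idi1 was lost with free RNA subtracted and in the largest cluster alone. In IMN1-like cells at 12w 4 of the 15 steps that could be were higher, against 25.4% of all genes, with a median log2 ratio of 0.25 beside 0.16 over all genes. In IMN2-like cells at 12w 0 of 15 were higher, against 27.5%, with a median of -0.18 beside 0.18. The summed level of the 18 synthesis steps at 12w was 0.570 times P5 in NSC-like cells and 1.25 times in IMN1-like cells. Acat2 at 24w was 0.432 times P5 in NSC-like cells and 1.56 times in IMN2-like cells.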

How the results depend on the processing

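No paired analysis was possible because the RNA-seq groups share fewer than 2 replicate numbers among the libraries that hold TPM. With the libraries grouped by their titles, 0 of the 29 genes fell and 0 rose, and the log2 fold changes of Acly (0.05) and Acaca (0.07) changed sign. With no filter on low values 13 fell, and with a 1.5-fold limit 11 fell and 0 rose. Without 1 control library in turn 19 to 23 fell and 1 to 2 rose, and 2 rose without the library labelled Ctrl_3. edgeR and DESeq2 on recovered reads gave 22 and 21 genes that fell. Unadjusted p under 0.05 was reached by 6451 genes with limma and 6748 with edgeR.

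With a 2-fold limit, the genes lower in NSC-like cells numbered 11 at 12w and 5 at 24w, with 1 higher at 24w, and in AS-like cells 11 at 12w and 5 at 24w, with 1 higher at each age. The count of genes higher in AS-like cells at 12w was 1 in cells of at least 2000 UMIs, with scaling by the median ratio, and with P5 cells of like sex. Under the other settings each count stayed within 1.5 times its value in the report. Of 65 single calls between ages, 28 were lost with the 2-fold limit, 4 with free RNA subtracted, 4 with doublets kept, 3 at a resolution of 0.4, 2 with at least 2000 UMIs, and 1 each with like sex, with per-cell means and with median scaling. In the largest cluster of each class alone, a setting chosen after seeing the data, 3 were lost. None of these 65 changed direction. The causes were not tested. The 24w classes are small, with 3 UMIs equal to 9.60 CPM in NSC-like cells, and the P5 cells of like sex numbered 319 and 426 for the NSC-like comparisons.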
